A study of Mus musculus with 2 samples.

Results

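The glucocorticoid-induced genes described here are 8 genes that the stress hormone receptor is known to switch on, Fkbp5, Tsc22d3, Pik3ip1, Sult1a1, Txnip, Dusp1, Per1 and Klf9, together with the receptor gene itself, Nr3c1. They are 9 of the 31053 genes listed in the files, they were picked by symbol, and each symbol matched 1 row. The choice of genes drew on earlier results of these same cells, in which Fkbp5, Tsc22d3 and Pik3ip1 lent their names to a group of microglia. The levels of those 3 genes, and of Sult1a1 and Txnip listed beside them, are therefore given as a description with no p-value.

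The cells came from the ischemic brain of Foxp3Egfp mice, a strain with a green fluorescent reporter at the regulatory T cell gene Foxp3, aged 6 to 8 weeks. After a flush with PBS, cells sorted as CD45+, CD11b+, CD3- and F4/80+ (leukocytes with myeloid and macrophage surface proteins and without the T cell receptor complex) were loaded on a 10x Genomics Chromium 3' v3 chip, which counts transcripts by unique molecular identifiers (UMIs). There was 1 group with 2 libraries, called replicate 1 and replicate 2. Transcripts of mice with stroke were pooled for sequencing, and no label states whether each replicate is a different animal. P-values weigh a difference between kinds of cells against the scatter left between these libraries after a shift common to all kinds. This scatter was estimated over all kinds of cells together and may be only technical. No group without stroke or without hormone was part of the series, so every comparison is between kinds of cells of the same libraries, and no hormone level was measured.

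A barcode counted as a cell when it had 1000 or more UMIs and 500 or more genes, with no more than 10% of its UMIs from mitochondrial genes. Replicate 1 held 15050 such cells and 94500329 UMIs, with a median of 5356 UMIs per cell, and replicate 2 held 7910 cells and 59189893 UMIs, with a median of 5892. The libraries shared 31 cell barcodes, which is 0.206% of the cells of replicate 1 and 0.392% of those of replicate 2. Cells were grouped by their other genes, with the 9 genes and all gene lists used below kept out of the grouping, and groups were named from marker genes. The named classes were macrophage-like (4691 and 589 cells in replicates 1 and 2), monocyte-like (311 and 407), T or NK cell-like (162 and 122), neutrophil-like (806 and 704), cycling-like (1214 and 288), dendritic cell-like (300 and 239) and microglia-like (3681 and 4064), while 3885 and 1497 cells stayed unnamed. T or NK cell-like cells were present although the sort selected CD3- cells. The libraries differed in make-up: macrophage-like cells were 31.2% of replicate 1 and 7.45% of replicate 2.

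Glucocorticoids such as corticosterone, the main glucocorticoid of mice, enter the cell and bind the receptor encoded by Nr3c1, which is held ready in the cytoplasm by the chaperone HSP90. The bound receptor moves to the nucleus, where it raises the transcription of some genes by binding DNA and lowers many inflammatory genes by acting on other transcription factors. Microglia, the resident macrophages of the brain, carry this receptor, and circulating glucocorticoids rise after a stroke. Most of the induced genes also answer to other signals, so their transcripts alone do not measure the hormone.

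Among the induced genes, Fkbp5 encodes a co-chaperone of HSP90 that lowers the affinity of the receptor for its hormone, a negative feedback, and it lies at chr17:28399094-28517527 on the minus strand. Tsc22d3 (chrX:140539528-140600659, minus strand) encodes GILZ, a leucine zipper protein that restrains inflammatory transcription factors. Pik3ip1 (chr11:3330401-3342971, plus strand) encodes a membrane protein that inhibits phosphoinositide 3-kinase. Sult1a1 (chr7:126672865-126676432, minus strand) encodes a cytosolic sulfotransferase of phenols, and Txnip (chr3:96557957-96561883, plus strand) a protein that binds thioredoxin and limits glucose uptake. Dusp1 (chr17:26505590-26562128, minus strand) encodes a phosphatase that switches off MAP kinases. Per1 (chr11:69095217-69109960, plus strand) encodes a repressor of the circadian clock, and Klf9 (chr19:23141226-23168134, plus strand) a zinc finger transcription factor. The receptor gene Nr3c1 is named only. Coordinates are those of GENCODE vM21 on GRCm38.

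The promoters of Fkbp5, Pik3ip1 and Klf9 are shown because the 3 pairs among them had the highest odds ratios of detection in the same microglia-like cell when pairs were ranked by the lower of the libraries, and that of Txnip because it held the only match to the receptor's own motif. Each runs 5′ to 3′ over 300 bases, 250 before and 50 after a transcript start, from RefSeq on GRCm38.p6, with motif matches in capitals. A RefSeq start can differ from the outer end of the GENCODE gene: those of Fkbp5 and Pik3ip1 lie inside the spans given above.
Fkbp5 (chr17:28486100-28486399, minus strand; E-box in capitals): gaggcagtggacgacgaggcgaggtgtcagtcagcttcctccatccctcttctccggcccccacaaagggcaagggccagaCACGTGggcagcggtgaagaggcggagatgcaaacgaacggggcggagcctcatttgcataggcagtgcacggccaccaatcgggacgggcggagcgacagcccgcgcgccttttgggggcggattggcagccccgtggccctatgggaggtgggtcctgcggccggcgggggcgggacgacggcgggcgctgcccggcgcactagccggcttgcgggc
Pik3ip1 (chr11:3330481-3330780, plus strand; no match): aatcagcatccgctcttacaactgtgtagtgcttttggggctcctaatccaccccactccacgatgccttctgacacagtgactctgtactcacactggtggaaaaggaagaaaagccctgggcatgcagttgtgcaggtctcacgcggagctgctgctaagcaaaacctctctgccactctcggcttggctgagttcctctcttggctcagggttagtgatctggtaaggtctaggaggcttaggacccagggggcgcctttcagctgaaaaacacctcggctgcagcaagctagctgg
Klf9 (chr19:23140976-23141275, plus strand; no match): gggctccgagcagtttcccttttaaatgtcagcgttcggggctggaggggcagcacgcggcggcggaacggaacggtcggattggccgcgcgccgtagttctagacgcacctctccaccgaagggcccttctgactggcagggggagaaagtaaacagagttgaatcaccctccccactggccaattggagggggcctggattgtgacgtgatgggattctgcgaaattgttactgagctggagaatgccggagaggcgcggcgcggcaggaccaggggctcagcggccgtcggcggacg
Txnip (chr3:96557707-96558006, plus strand; glucocorticoid response element in capitals): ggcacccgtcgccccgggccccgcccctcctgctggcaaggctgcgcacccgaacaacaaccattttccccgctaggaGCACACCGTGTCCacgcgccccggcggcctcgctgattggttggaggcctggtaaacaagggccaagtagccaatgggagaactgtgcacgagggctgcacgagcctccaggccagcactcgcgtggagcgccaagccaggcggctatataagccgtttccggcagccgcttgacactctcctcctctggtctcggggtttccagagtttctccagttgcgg

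The motifs searched were the glucocorticoid response element (G, any base, ACA, 3 bases of any kind, TGT, any base, C), the cAMP response element TGACGTCA and the E-box CACGTG to which clock factors bind; each reads the same on both strands. The table held 11 promoters of the genes. The response element was found in 1 of these 11, that of Txnip, where it begins 172 bases before the start, against 0.475% of 32851 promoters of all genes. The cAMP response element stood in 1 of 11, that of Dusp1, against 1.79% of all promoters, and the E-box in 3 of 11, those of Fkbp5, Per1 and Dusp1, against 7.15%. A match is a run of letters and not a measured site, and a window without one says nothing of receptor binding further away.

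The first comparison asked in which kinds of cells the genes were expressed. Levels are UMIs of the gene scaled to the total UMIs of a class in a library (CPM), and they compare a gene between classes, not 1 gene with another. Barcodes with fewer than 100 UMIs, which hold free RNA from broken cells, gave a background, and this RNA can add to the counts of every class. Microglia-like cells had the highest mean level of 5 of the 9 genes (Fkbp5, Pik3ip1, Sult1a1, Txnip and Nr3c1), neutrophil-like cells that of Per1, monocyte-like cells those of Dusp1 and Klf9, and T or NK cell-like cells that of Tsc22d3. Macrophage-like cells had the lowest mean of Nr3c1, Pik3ip1, Sult1a1 and Txnip.

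Nr3c1, the receptor, reached 24.5 and 26.2 CPM in macrophage-like cells of replicates 1 and 2, against 89.7 and 104 CPM in microglia-like cells. It had 44.5 and 40.6 CPM in monocyte-like, 76.3 and 78.7 in neutrophil-like, 55.3 and 50.7 in dendritic cell-like, 67.9 and 61.8 in T or NK cell-like and 41.7 and 52.2 in cycling-like cells. Microglia-like cells were above every other named class in both libraries, and macrophage-like cells below every other. The receptor was 1.47 ± 0.14 log2 units lower in macrophage-like than in microglia-like cells (log2 fold change -1.47 ± 0.14 SE; adjusted p = 4.53e-07, edgeR quasi-likelihood test). Fold changes are scaled by TMM, which places the bulk of genes near no change, and not by total UMIs as CPM are, so they differ from the ratios of the CPM values. Scaled by total UMIs, the median of the genes tested was -0.46 for the macrophage-like class and -0.64 for the monocyte-like class. Nr3c1 then came to -1.93 in macrophage-like cells. Its free RNA level was 38.0 and 55.3 CPM, above that of macrophage-like cells.

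Fkbp5, the feedback gene of the receptor, had 15.9 and 20.2 CPM in macrophage-like cells, 7.80 and 11.9 in monocyte-like cells and 56.5 and 47.9 in microglia-like cells. In neutrophil-like cells it had 43.6 and 39.2 CPM, just under the microglia-like range and with no overlap. Cycling-like (33.0 and 28.7), T or NK cell-like (29.5 and 25.3) and dendritic cell-like cells (33.9 and 14.7) overlapped with their neighbours in this order. Its log2 fold change against microglia-like cells was -1.12 ± 0.20 for macrophage-like cells and -1.75 ± 0.29 for monocyte-like cells (SE).

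Tsc22d3 had 55.6 and 61.6 CPM in macrophage-like cells, 35.6 and 47.6 in monocyte-like cells and 129 and 157 in microglia-like cells. The T or NK cell-like cells had 111 and 198 CPM, a range that contains the microglia-like one. The log2 fold changes against microglia-like cells were -0.82 ± 0.17 (macrophage-like), -1.29 ± 0.19 (monocyte-like) and 0.18 ± 0.18 (T or NK cell-like).

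Pik3ip1 and Sult1a1 had their lowest levels in the macrophage-like and monocyte-like classes. Pik3ip1, the kinase inhibitor, had 1.29 and 0.963 CPM (43 and 5 UMIs) in macrophage-like cells and 1.11 and 1.75 CPM (1 and 5 UMIs) in monocyte-like cells, against 22.7 and 25.0 CPM (311 and 596 UMIs) in microglia-like cells. Sult1a1, the sulfotransferase, had 1.74 and 3.27 CPM in macrophage-like cells and 2.23 and 5.25 in monocyte-like cells, against 46.0 and 60.5 CPM in microglia-like cells. Neither range overlapped, and both macrophage-like levels lay under those of free RNA (8.59 and 14.5 CPM for Pik3ip1, 14.8 and 36.1 CPM for Sult1a1). The log2 fold changes of macrophage-like over microglia-like cells were -3.76 ± 0.26 for Pik3ip1 and -4.07 ± 0.21 for Sult1a1.

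The shares of single cells gave the same order for Pik3ip1. A UMI of it was seen in 0.810% and 0.849% of macrophage-like cells, although these had a median of 6606 and 8515 UMIs, and in 7.01% and 10.1% of microglia-like cells, which had a median of 2645 and 4708. After thinning every cell to 2000 UMIs, so that depth was equal, the shares were 0.319% and 0.194% in macrophage-like cells and 4.44% and 4.21% in microglia-like cells.

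Txnip, the thioredoxin-binding protein, had 44.1 and 91.3 CPM in macrophage-like, 125 and 131 in monocyte-like, 386 and 614 in neutrophil-like and 547 and 682 in microglia-like cells. The neutrophil-like and microglia-like ranges overlapped. The log2 fold change of macrophage-like over microglia-like cells was -2.81 ± 0.19.

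**Figure D1:**
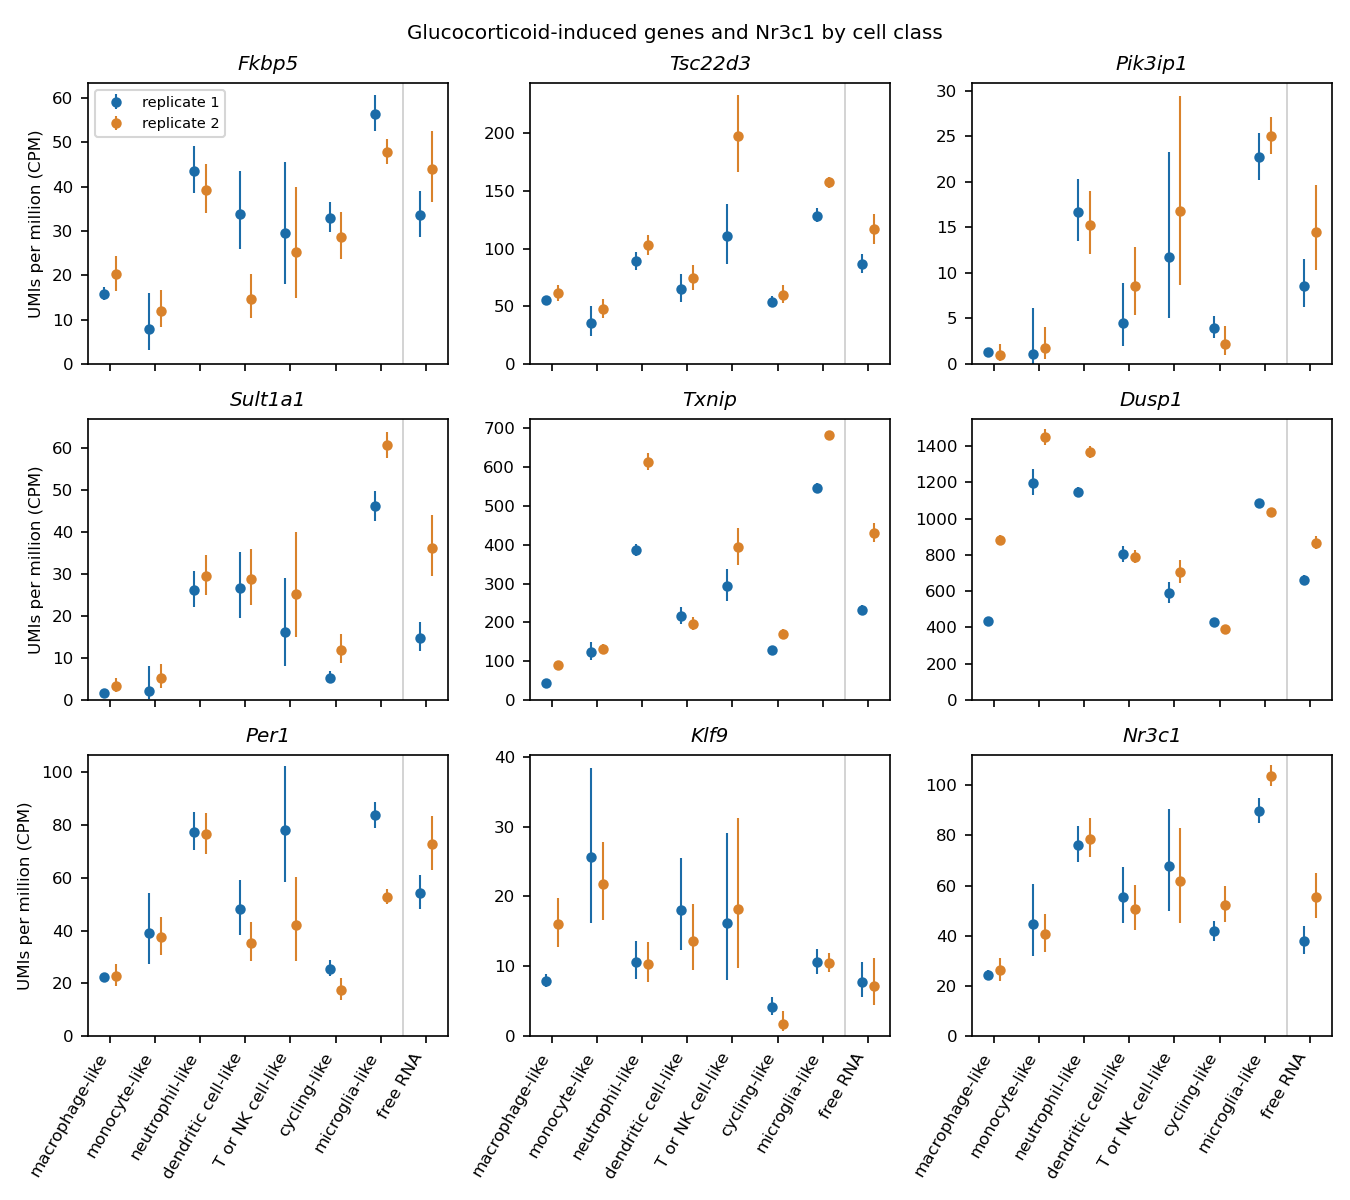
CPM of each gene (vertical axis, linear, from 0) in the named classes and in free RNA for replicate 1 (blue) and replicate 2 (orange); bars are exact 95% Poisson intervals, which cover counting error only. Pik3ip1 lay at 1.75 CPM or less in macrophage-like and monocyte-like cells and at 22.7 and 25.0 CPM in microglia-like cells, while Dusp1 was highest in monocyte-like cells.

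Dusp1, the MAP kinase phosphatase, followed another order. It had 436 and 881 CPM in macrophage-like cells, 1198 and 1450 CPM in monocyte-like cells, 1146 and 1367 in neutrophil-like cells and 1088 and 1036 in microglia-like cells. Its calls depended on the scaling. With TMM it was higher in monocyte-like than in microglia-like cells (log2 fold change 0.76 ± 0.20, adjusted p = 0.00619, edgeR), but with total UMIs this did not pass (0.31 ± 0.21, adjusted p = 0.224, edgeR). In macrophage-like cells it did not pass with TMM (-0.31 ± 0.20, adjusted p = 0.206, edgeR) and was lower with total UMIs (-0.73 ± 0.21, adjusted p = 0.00801, edgeR). Alone, replicate 1 gave a log2 ratio of macrophage-like over microglia-like cells of -0.79 with TMM and -1.32 with total UMIs, and replicate 2 gave 0.14 and -0.23.

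Klf9, the zinc finger factor, had 7.93 and 16.0 CPM in macrophage-like, 25.6 and 21.7 in monocyte-like, 4.21 and 1.73 in cycling-like and 10.6 and 10.5 in microglia-like cells. It was higher in monocyte-like cells (log2 fold change 1.59 ± 0.31, adjusted p = 0.00058, edgeR) and lower in cycling-like cells (-1.43 ± 0.32, adjusted p = 0.00195, edgeR). In macrophage-like cells it did not pass (0.48 ± 0.25, adjusted p = 0.111, edgeR), and it passed there with no filter on low counts (adjusted p = 0.04) and with coarser clusters (0.0125). With total UMIs its macrophage-like value was 0.03, and the monocyte-like call stayed (1.11, adjusted p = 0.0105, edgeR).

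Per1, the clock repressor, had 22.4 and 22.7 CPM in macrophage-like, 39.0 and 37.5 in monocyte-like, 77.5 and 76.5 in neutrophil-like and 83.8 and 52.7 in microglia-like cells. The libraries lay further apart in microglia-like cells than in the other 3 of these classes. It was lower in macrophage-like cells (log2 fold change -1.13 ± 0.19, adjusted p = 0.000141, edgeR), and its difference in monocyte-like cells did not pass (-0.29 ± 0.21, adjusted p = 0.272, edgeR), although it was lower there with total UMIs (-0.77, adjusted p = 0.00697, edgeR).

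Calls are counted for the other 4 genes, Dusp1, Per1, Klf9 and Nr3c1. Whether their levels in these cells also entered the choice of genes is not stated, so their p-values may not be free of it. Against microglia-like cells, 2 of them were lower in macrophage-like cells, Nr3c1 and Per1, and 0 higher, with edgeR as with DESeq2, and at an unadjusted p under 0.05 also 0 were higher. Of the 10396 genes tested, called all genes in these comparisons, 27.9% were lower and 28.5% higher. They leave out the 2000 variable genes used for grouping, from which the 9 genes and the lists had been kept out. Their shares are thus not a like background for genes that vary much between cells. In monocyte-like cells 1 of the 4 genes was lower, Nr3c1, and 2 higher, Dusp1 and Klf9 (25.0% and 23.9% of all genes). All 4 were lower and 0 higher in cycling-like cells (22.3% and 23.7%), a class in which most cells came from a cluster with microglia markers. In dendritic cell-like cells 1 was lower, Nr3c1, and 0 higher (14.5% and 17.7%), where Klf9 was higher at an unadjusted p of 0.0229 (edgeR). In T or NK cell-like cells 2 were lower, Dusp1 and Nr3c1, and 0 higher (8.49% and 10.7%). In neutrophil-like cells 0 were lower and 0 higher with edgeR and with DESeq2 (3.6% and 7.97% of all genes), and 0 had an unadjusted p under 0.05. These last 2 classes depended on the fit: without the library as a term 0 were lower in T or NK cell-like cells, and with finer clusters 2 were higher in neutrophil-like cells. The other 5 genes had a negative log2 fold change in every one of the classes, except that of Tsc22d3 in T or NK cell-like cells. As the choice of genes drew on earlier results of these cells, this describes the choice. Over all 9 genes the median was -1.13 in macrophage-like cells with TMM, where that of all genes tested was -0.00041. The 9 include those 5, so this median also describes the choice, and nothing is read from the difference.

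Microglia markers were present in the other classes to unequal degrees. The summed level of 10 microglia markers was 1702 and 1678 CPM in macrophage-like, 8459 and 9554 in neutrophil-like, 6968 and 11575 in cycling-like and 13245 and 18595 in microglia-like cells. Markers are called detected here at 50 CPM and 25% of the highest cluster. The neutrophil-like cluster had 9 of 10 microglia markers detected, and 19.3% of its cells had high doublet scores. With finer clusters, the neutrophil-like cluster (81 and 350 cells) had 0 of 10 and 0.232%. An unnamed cluster led by G0s2 and Hdc (725 and 352 cells) had 9 of 10 and 27.9%. Neutrophil-like levels thus include barcodes with microglia markers. The part of microglial RNA in the neutrophil-like and cycling-like values was not tested. The sum was 1266 and 1222 CPM in monocyte-like, 4816 and 3908 in dendritic cell-like and 5468 and 6232 in T or NK cell-like cells. No microglia marker was at 0 in any named class. The cycling-like class joined cluster 9 (988 and 272 cells), with 6 of 10 microglia markers detected, and cluster 11 (226 and 16 cells), with 0 of 10. The class may thus hold microglia that divide, which was not tested.

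The other genes of the pathway gave a mixed picture in macrophage-like against microglia-like cells. The gene lists, here and below, were chosen with earlier results of these cells known. Their counts and p-values may not be free of that choice. Of 22 other genes known to be induced by glucocorticoids, 18 were tested, 4 were higher and 9 lower, with a median log2 fold change of -0.33, where 28.5% of all genes were higher and 27.9% lower. With total UMIs 3 were higher and 9 lower. Anxa1, the anti-inflammatory phospholipid-binding annexin, had 72.0 and 113 CPM in macrophage-like cells and 0.584 and 0.252 CPM in microglia-like cells (log2 fold change 8.36 ± 0.56, adjusted p = 3.31e-08, edgeR). Angptl4, an inhibitor of lipoprotein lipase, was also higher (4.28 ± 0.21, adjusted p = 3.34e-09, edgeR). Adora3, an adenosine receptor, had 2.10 and 1.93 CPM in macrophage-like cells and 56.7 and 70.7 CPM in microglia-like cells (-4.37 ± 0.20, adjusted p = 2.24e-09, edgeR), and the zinc finger gene Zbtb16 was lower (-2.82 ± 0.54, adjusted p = 0.000449, edgeR). Known targets of the hormone were called in both directions, and more of them were lower than higher.

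Of 11 genes that deliver the hormone signal, 10 were tested, 3 were higher and 4 lower, with a median of -0.03. These counts are near the shares of all genes, 28.5% higher and 27.9% lower. With total UMIs 1 was higher and 5 lower, with a median of -0.48. Nr3c2, the mineralocorticoid receptor that also binds corticosterone, had 0.21 and 0 CPM (7 and 0 UMIs) in macrophage-like cells and 2.41 and 2.56 CPM in microglia-like cells (log2 fold change -3.28 ± 0.61, adjusted p = 0.000412, edgeR). Nrip1, a nuclear receptor corepressor, had 24.6 and 27.7 CPM in macrophage-like cells and 190 and 204 CPM in microglia-like cells (-2.47 ± 0.16, adjusted p = 2.27e-08, edgeR). Stip1, which hands clients of HSP70 to HSP90, was higher with TMM (0.75 ± 0.14, adjusted p = 0.000395, edgeR) and did not pass with total UMIs (0.30, adjusted p = 0.125, edgeR). Hsd11b1, the enzyme that regenerates active hormone, passed as higher on 8 and 4 UMIs in macrophage-like cells against 1 and 1 in microglia-like cells.

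Of 14 inflammatory genes that the receptor is known to repress, 13 were tested, 4 were higher and 8 lower in macrophage-like cells, against 28.5% and 27.9% of all genes, with a median of -2.37. With total UMIs 3 were higher and 8 lower. The chemokine gene Ccl4 had 464 and 588 CPM in macrophage-like cells and 6686 and 4640 CPM in microglia-like cells (log2 fold change -2.95 ± 0.22, adjusted p = 6.05e-08, edgeR). The interferon-induced chemokine gene Cxcl10 (-3.11 ± 0.36) and Il12b, a subunit of interleukins 12 and 23 (-3.16 ± 0.62), were lower too, and the neutrophil-attracting Cxcl1 was higher (4.82 ± 0.57), each with an edgeR adjusted p of 0.000603 or less. Of 18 immediate early genes, the quickly induced transcription factors and their kin, 14 were lower, against 27.9% of all genes, and 0 higher with edgeR, with a median of -1.09. None had a positive log2 fold change, and with total UMIs 17 were lower and 0 higher. Egr3 (-4.91 ± 0.31), Klf2 (-3.32 ± 0.20), Egr1 (-3.25 ± 0.30) and Btg2 (-2.57 ± 0.23) had the largest differences. With both lists chosen when earlier results of these cells were known, the counts may describe that choice.

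Of 11 other clock genes, 2 were higher and 6 lower, against 28.5% and 27.9% of all genes, with a median of -0.82. With total UMIs 1 was higher and 8 lower, with a median of -1.30. Bhlhe40, a repressor of the clock that also acts in activated leukocytes, had 57.7 and 65.5 CPM in macrophage-like cells and 4.45 and 1.89 CPM in microglia-like cells (4.80 ± 0.34). Per2 was higher with TMM (1.55 ± 0.46) and did not pass with total UMIs (1.06, adjusted p = 0.0533, edgeR), whereas Per3 (-2.31 ± 0.26) and the clock output gene Tef (-1.44 ± 0.17) were lower, as Per1 was. Of 10 genes of FOXO signalling and quiescence, to which Klf2 also belongs, 4 were higher and 6 lower, against 28.5% and 27.9% of all genes. Their median was -0.83. Gadd45a (2.38 ± 0.32) and Il7r (1.58 ± 0.29) were among the higher ones, and Klf2 and Ccng2 (-1.94 ± 0.14) among the lower ones. With total UMIs 2 of these 10 were higher and 6 lower, with a median of -1.27.

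The second description followed the genes across the 5 clusters of microglia-like cells. Cluster 13 (1202 and 627 cells in replicates 1 and 2), led by Tnf, Cd83, Il1a and Tnfaip3, had more of 7 of the 9 genes than the other microglia-like clusters in both libraries, and less Txnip and Nr3c1. Of 10599 genes with 20 or more UMIs in each library, 13.4% were higher there and 69.7% lower in both libraries. There Fkbp5 had 75.4 and 82.8 CPM, Tsc22d3 160 and 265, Pik3ip1 30.1 and 51.8, Klf9 15.2 and 28.7, Dusp1 1360 and 1786 and Per1 103 and 87.3 CPM. The log2 ratio of cluster 13 over the other microglia-like clusters was 0.79 and 1.09 for Fkbp5, 0.58 and 1.03 for Tsc22d3, 0.77 and 1.52 for Pik3ip1 and 1.04 and 2.32 for Klf9. Sult1a1 differed least, by 0.19 and 0.40. The receptor gene was lower, as most genes were, at 71.7 and 68.7 CPM in cluster 13 and a log2 ratio of -0.51 and -0.72.

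Cluster 17 (158 and 1123 cells), led by the heat shock genes Hspa1b and Hspa1a and by the microglia marker P2ry12, had 120 and 138 CPM of Nr3c1 and 948 and 772 CPM of Txnip, with log2 ratios over the other clusters of 0.44 and 0.53 for the receptor. Fkbp5 had 33.0 and 30.6 CPM there, at log2 ratios of -0.79 and -0.77, and Pik3ip1 9.44 and 11.6 CPM, at -1.29 in each library. Cluster 4 (1094 and 1804 cells), led by Egr1, Jun and P2ry12, had intermediate levels of Fkbp5 (44.2 and 41.4 CPM) and high Txnip (719 and 805 CPM). Cluster 15, led by interferon-induced genes, had the least Txnip of the 5 (304 and 329 CPM). In cluster 5 the libraries disagreed: Pik3ip1 was below the other clusters in replicate 1 (-1.03) and above them in replicate 2 (0.39). The clusters came from genes of the same cells, so these values are a description, and no test was made.

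**Figure D2:**
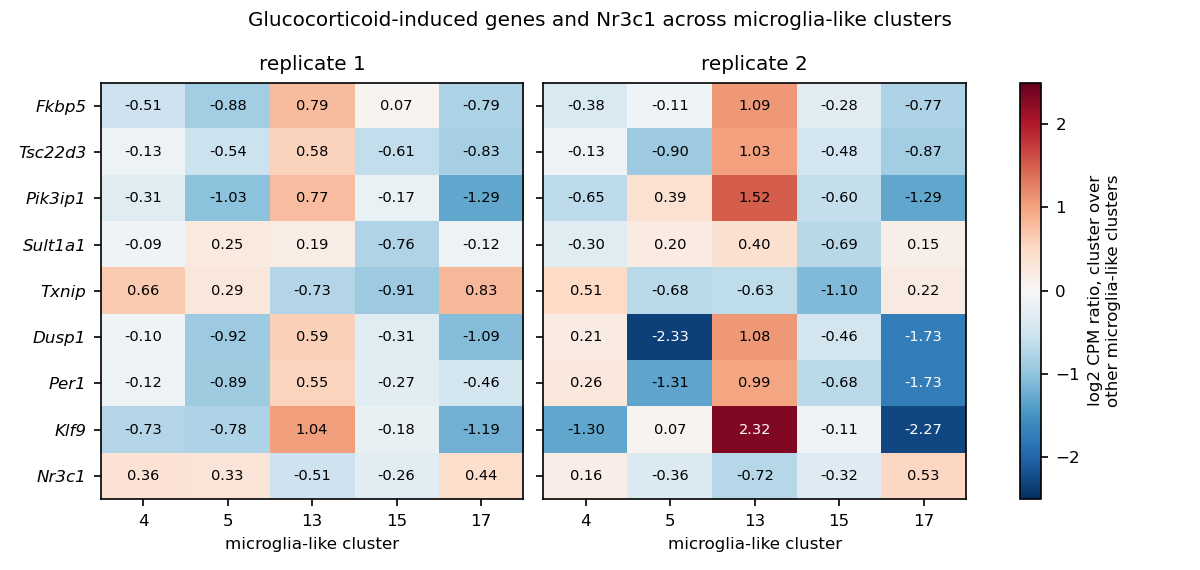
Log2 ratio of CPM in each microglia-like cluster over the other microglia-like clusters, for replicate 1 (left) and replicate 2 (right); red is higher and blue lower. Cluster 13 was red for Fkbp5, Tsc22d3, Pik3ip1, Sult1a1, Dusp1, Per1 and Klf9 and blue for Txnip and Nr3c1 in both libraries.

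Among macrophage-like cells, cluster 1, led by the lipid-handling genes Fabp4 and Gpnmb, had the lowest levels. It had 6.95 CPM of Fkbp5 in replicate 1 (65 UMIs) and 0.107 CPM of Pik3ip1 (1 UMI) and 0.428 CPM of Sult1a1 (4 UMIs). In replicate 2 the cluster had 15 cells, too few for a level. Cluster 3, led by Arg1 and Hmox1, had 25.2 and 18.6 CPM of Fkbp5, 688 and 1036 CPM of Dusp1 and 12.6 and 19.1 CPM of Klf9. Replicate 1 had 1298 of its 4691 macrophage-like cells in this cluster, and replicate 2 had 412 of 589, so the class is not made up alike in the libraries.

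The third description asked whether the genes were found together in single cells. A cell with more UMIs shows more of every gene, so each microglia-like cell was thinned to 2000 UMIs and shallower cells were left out. This kept 2307 of 3681 cells in replicate 1 and 3968 of 4064 in replicate 2. The loss was uneven: in replicate 1, 190 of 1016 cells of cluster 5, led by P2ry13 and P2ry12, were kept, and 1009 of 1202 of cluster 13. Values of replicate 1 thus rest on few cells of cluster 5. Detection was averaged over all ways of drawing the 2000 UMIs, so counts of cells need not be whole. The log2 odds ratio compares the odds of finding one gene in cells with the other gene against cells without it, and 0 means no association. It was computed in each library, and the median over all 8505 genes detected in at least 1% of the cells was 0.02 in each library for Fkbp5.

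Pik3ip1 and Klf9 were the genes most associated with Fkbp5. Of cells with Pik3ip1, 23.6% and 24.1% also had Fkbp5 in replicates 1 and 2, against 10.3% and 7.48% of cells without Pik3ip1, a log2 odds ratio of 1.44 and 1.98. Of cells with Klf9, 23.8% and 21.7% had Fkbp5, against 10.6% and 7.92% of cells without it, a log2 odds ratio of 1.43 and 1.72. Ranked by the lower of the libraries, Pik3ip1 stood first and Klf9 second of 8505 genes. The number of cells behind these values is small: 24.2 and 40.2 cells had both Fkbp5 and Pik3ip1, where 11.2 and 13.7 would if the genes were independent.

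Pik3ip1 and Klf9 formed the strongest pair of all 36. Of cells with Klf9, 18.3% and 21.6% had Pik3ip1, against 4.13% and 3.87% of cells without Klf9, a log2 odds ratio of 2.43 and 2.80. Each was the first of all genes in the ranking by the other. This pair rests on 9.20 and 16.2 cells with both genes, against 2.23 and 3.16 if independent.

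Sult1a1 stood at rank 12 with Fkbp5 (0.81 and 0.83) and Tsc22d3 at rank 28 (0.66 and 0.79). Of cells with Tsc22d3, 14.7% and 11.8% had Fkbp5, against 9.92% and 7.16% of cells without it. Dusp1 followed at rank 75 (0.59 and 0.53) and Per1 at rank 1154 (0.15 and 0.70). Txnip lay just under 0 with Fkbp5 (-0.16 and -0.05, rank 5149). Of the 8 other genes, 2 had a log2 odds ratio with Fkbp5 above 1 in both libraries, where 0.0705% of all genes had, and 6 were above 0 in both, where 33.0% of all genes were. Fkbp5, Tsc22d3 and Pik3ip1 lent their names to 1 group of microglia in earlier results of these cells. The choice of genes drew on those results, so such counts describe the choice, and nothing is read from them.

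The receptor gene itself had low odds ratios with its targets. Cells with Nr3c1 had Fkbp5 in 9.44% and 7.19% of cases, against 11.2% and 8.42% of cells without Nr3c1 (log2 odds ratio -0.26 and -0.24, rank 6486). The ratio was -0.37 and -0.54 with Pik3ip1, -0.27 and -0.43 with Klf9, -0.25 and -0.31 with Dusp1 and -0.12 and -0.10 with Tsc22d3. It was above 0 in both libraries with Txnip alone (0.24 and 0.24), 1 of 8 genes, where 48.4% of all genes were above 0 with Nr3c1. It was below 0 in both libraries with 5 of 8 genes, where 14.1% of all genes were. Within clusters 4 of 8 were below 0, and the ratios lay closer to 0, at -0.18 and -0.11 with Fkbp5, -0.32 and -0.32 with Pik3ip1, -0.24 and -0.11 with Klf9, -0.14 and -0.10 with Dusp1 and -0.06 and 0.01 with Tsc22d3. Without thinning, 0 of the 8 pairs were below 0 in both libraries, and Fkbp5 with Nr3c1 came to 0.68 and 0.18.

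**Figure D3:**
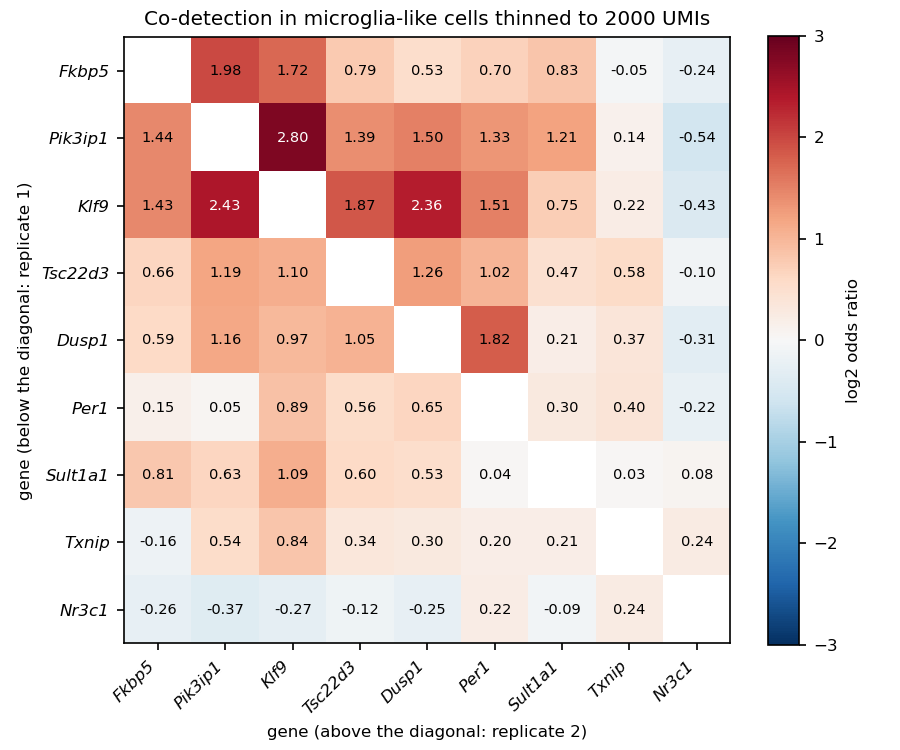
Log2 odds ratio of detecting both genes of a pair in microglia-like cells thinned to 2000 UMIs, with replicate 2 above the diagonal and replicate 1 below it. Pairs among Fkbp5, Pik3ip1 and Klf9 lay between 1.43 and 2.80, and 5 of the 8 pairs with Nr3c1 were below 0 in both libraries.

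The pairs among the 8 induced genes were counted where at least 5 cells of each library would hold both genes if independent, a minimum chosen after the data were seen. This left 26 of 28 pairs and set aside Pik3ip1 with Klf9 and Sult1a1 with Klf9. Of the 26, 25 were above 0 in both libraries, and the exception was Fkbp5 with Txnip. No share over pairs of all genes was computed, here or within clusters, so these counts have no background. Over all 28 pairs the median log2 odds ratio was 0.64 in replicate 1 and 0.81 in replicate 2. When cells were compared within clusters, 23 of 26 were above 0 in both libraries. Fkbp5 with Pik3ip1 was then 1.28 and 1.64, Fkbp5 with Klf9 1.23 and 1.17, and Pik3ip1 with Klf9 2.20 and 1.98. Within cluster 13 alone 23 of 25 pairs were above 0 in both. Cluster 4 alone had 15 of 20, with medians of 0.24 and 0.53, and cluster 15 alone 7 of 8. In cluster 17, where replicate 1 had 77 cells deep enough, 5 pairs could be counted, all above 0, and in cluster 5 3 of 7 were. Pik3ip1 with Per1 depended on the library, at 0.05 in replicate 1 and 1.33 in replicate 2.

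For the other genes the counts are given beside those of all 8505 genes, with the same limit from the choice of genes. With Pik3ip1, 4 of 8 were above 1 in both libraries (0.482% of all genes) and 7 above 0 (35.3%), and with Klf9 3 (1.18%) and 7 (40.6%). With Dusp1, 2 of 8 were above 1 (0.341%) and 7 above 0 (16.1%), and with Per1 0 (0.0823%) and 7 (26.5%). With Sult1a1 and with Txnip, 0 of 8 were above 1 (0.0% of all genes) and 7 above 0 (34.5% and 53.6%). For Txnip the share of all genes above 0 was the highest of the 9, so a positive value was common there.

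In other classes fewer pairs reached 5 expected cells in each library. In macrophage-like cells 6 pairs did and all 6 were above 0 in both libraries, with medians of 0.74 and 0.58. In neutrophil-like cells 15 of 16 were (0.47 and 0.44), and in cycling-like cells 4 of 4 (0.40 and 0.54). No share over all genes was computed in these classes, so nothing is read from the counts. In macrophage-like cells Dusp1 with Klf9 came to 1.33 and 1.36, with 59.5 and 14.7 cells holding both genes, and Tsc22d3 with Txnip to 0.49 and 0.75, with 51.4 and 11.7 cells.

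The genes outside the list that were most associated with Fkbp5 began with Ddit4 (1.29 and 1.52, rank 3), which encodes an inhibitor of the growth kinase complex mTORC1 and is itself a known glucocorticoid target. Jdp2, a repressor of AP-1 (1.26 and 1.31), the inhibitory receptor gene Cd300lf (1.23 and 1.55) and Eepd1 (1.06 and 1.09) came next. They were followed by Gramd1b, which carries cholesterol from the plasma membrane (1.02 and 0.90), the raft protein gene Rftn1 (1.05 and 0.86), the proton-sensing receptor gene Gpr65 (0.85 and 1.38) and Il15ra, a chain of the interleukin 15 receptor (0.85 and 1.37). Of the 13 other glucocorticoid-induced genes that could be measured, 6 were above 0 and 4 below 0 with Fkbp5 in both libraries. Among all 8505 genes 33.0% were above 0, and no share below 0 was computed for Fkbp5, so nothing is read from these counts. Besides Ddit4, the metal-binding Mt1 stood high (0.76 and 0.80, rank 17), whereas Sgk1, a kinase gene known as a target, was below 0 (-0.15 and -0.30). Mt1 and Sgk1 were chosen from this list after their values were seen.

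Tsc22d3 shared Jdp2, Pik3ip1 and Klf9 with Fkbp5 among its leading genes. Its 8 leading genes outside the list were Jdp2 (1.28 and 1.25), Fos (1.18 and 1.26), Junb (1.29 and 1.18), the histone gene H3f3b (1.77 and 1.16), Jund (1.13 and 1.11), Zfp36 (0.98 and 1.08), Atf3 (0.98 and 1.17) and Rilpl2 (0.91 and 0.94), and 5 of them were on the list of immediate early genes. Of 18 immediate early genes, 17 were above 0 with Tsc22d3 in both libraries (median 0.70 and 0.97), where 28.6% of all genes were. With Fkbp5 10 of 18 were above 0 in both (median 0.23 and 0.12), where 33.0% of all genes were. Among the 8 other genes, Pik3ip1 (1.19 and 1.39, rank 2), Klf9 (1.10 and 1.87, rank 7) and Dusp1 (1.05 and 1.26, rank 8) were above 1 with Tsc22d3 in both libraries, where 0.0941% of all genes were. Within clusters, Fos stood at 0.76 and 0.94 with Tsc22d3 and at -0.26 and -0.13 with Fkbp5. The part of the immediate early response in the values of Tsc22d3 and Dusp1 was not tested.

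**Figure D4:**
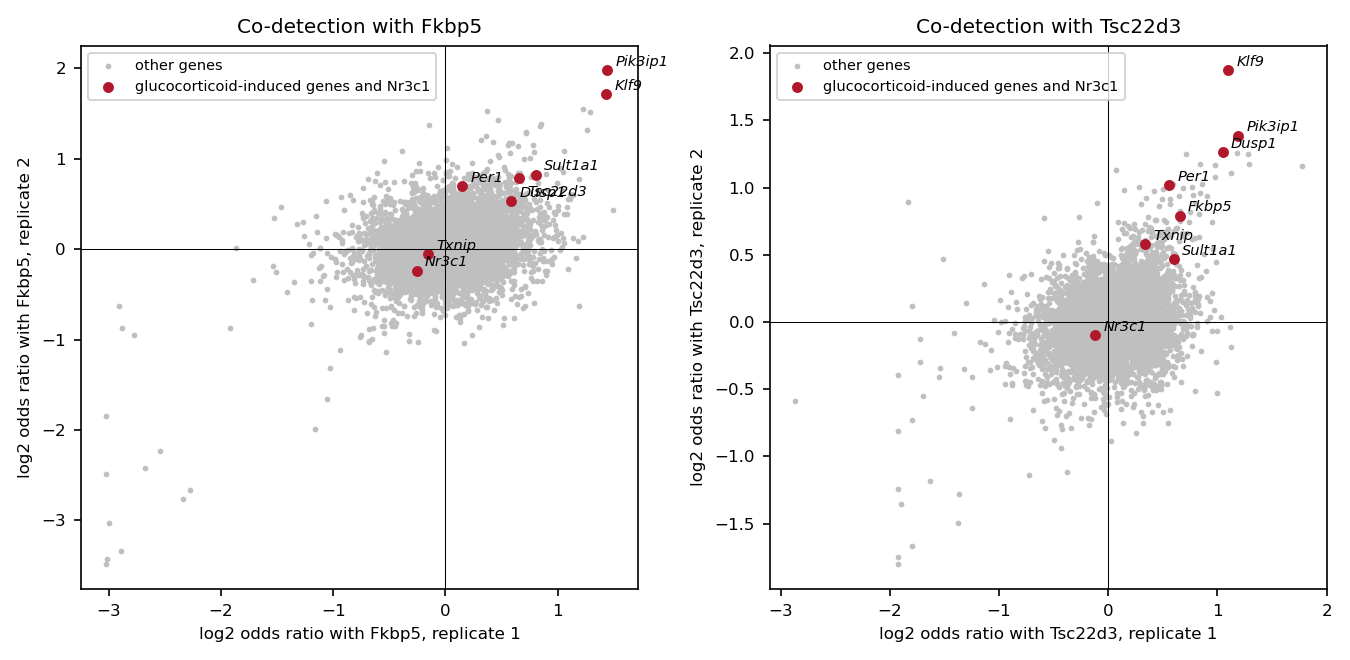
Log2 odds ratio with Fkbp5 (left) and with Tsc22d3 (right) of each of 8505 genes in microglia-like cells, in replicate 1 (horizontal axis) and replicate 2 (vertical axis), with the genes described here in red. Pik3ip1 and Klf9 stood at the upper right end with Fkbp5, while Nr3c1 lay below 0 in both libraries.

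Genes known to be repressed by glucocorticoids lay on both sides of 0 with Fkbp5. Of 11 that could be measured, 6 were above 0 and 3 below 0 in both libraries, with medians of 0.06 and 0.08. Among all 8505 genes 33.0% were above 0 with Fkbp5. A share below 0 was not computed, so the split is not read as a trait of repressed genes. Tnf, which leads cluster 13 and was picked here for that, stood at 0.49 and 0.64 with Fkbp5, and within clusters at 0.18 and 0.16.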

How the data were processed

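Single-cell transcripts of 2 libraries were analysed. As deposited, the values are raw counts of UMIs, with no normalization by the authors. Per the submitters' processing notes, STAR 2.5.1b, Cell Ranger 4.0.0 and Seurat 4 were used, with the builds GRCm38, mm10 and GRCh38 and no role given for each. The features and barcodes lists give names only. The counting of near-identical or overlapping genes is not stated here.

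The genes, lists and markers were chosen with earlier results of these data known. The genes named are the 9 members, the 8 leading genes outside them by odds ratio with Fkbp5 and with Tsc22d3, and from each list up to 4 called genes with the largest absolute log2 fold change. Cells were scaled to 10000 counts and log-transformed. The 2000 most variable genes, without 93 listed genes and without mitochondrial and ribosomal genes, gave 30 principal components, 15 neighbours and Leiden clusters at resolution 0.8 (scanpy 1.11.5, leidenalg 0.10.2, Python 3.11.15). A cluster of at least 100 cells was named by 3 markers among its 10 leading genes, otherwise by the largest share of markers detected at 50 CPM and at 25% of the highest cluster. The naming rule was chosen with the clusters in view. Clusters 0 and 10 had microglia markers but were led by Cst7, held by the dendritic cell list, and stayed unnamed. Doublets were kept: Scrublet called 1426 cells (9.48%) in replicate 1 and 0 of 7910 in replicate 2, where it had not worked, so an alternative left out the 1812 and 501 cells with the highest scores.

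UMIs were summed per library and class and compared by the quasi-likelihood test of edgeR 4.0.16 (R 4.3.3; TMM, filterByExpr; total UMIs were an alternative), each class against microglia-like cells, with the library as a term because both sides come from the same libraries, which left 6 residual degrees of freedom. P-values were adjusted by Benjamini-Hochberg over the 10396 genes tested, with a threshold of 0.05. These leave out the 2000 variable genes used for the clusters. Adjusted values are given for Dusp1, Per1, Klf9, Nr3c1 and genes of the lists. Deviations of same-numbered libraries correlated with r between 0.106 and 0.365 over 10419 genes. On simulated macrophage-like against microglia-like counts of 11007 genes, 82% of 2-fold and 100% of 4-fold changes were recovered, with 11 false calls. The simulation changed only 100 genes at each fold, none of them with low counts, and its spread was set by hand. These rates thus need not hold for the real contrasts, where far more genes differed, or for genes with few UMIs. DESeq2 1.42.0 was an alternative. Odds ratios had 0.5 added to each of the 4 counts and carry no test, since cells are not replicates. Intervals cover counting error only. Of the gene IDs in the files, 99.6% matched GENCODE vM21.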

Additional observations from a re-analysis of the deposited data

How the results depend on the processing

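The causes of the changes given here were not tested. Counts are those of the 4 tested genes. In macrophage-like cells they were the same with DESeq2, with no replicate block (2 lower, 0 higher), without high doublet scores, at 2000 UMIs, at resolution 1.2 and with clusters 0 and 10 joined to microglia-like cells. That last alternative, the within-cluster one and the scaling by total UMIs without TMM were added after seeing the data. With no filter on low counts or at resolution 0.4, 1 gene, Klf9, was higher there. With total UMIs, 5009 of all genes were lower and 1578 higher in macrophage-like cells, against 2900 and 2963 with TMM; Dusp1 then passed as lower. In monocyte-like cells total UMIs gave 2 lower and 1 higher, and resolution 1.2 gave 1 higher, since Dusp1 no longer passed. In dendritic cell-like cells 2 were lower with total UMIs and with no filter, and 1 was higher with no filter. That class gave no value at resolutions 0.4 and 1.2. In neutrophil-like cells 3 and 2 were higher at resolutions 0.4 and 1.2. The T or NK cell-like count of 2 lower genes was 1 with no filter, without high doublet scores and at resolution 0.4, and 0 with DESeq2, with no replicate block, at 2000 UMIs, at resolution 1.2 and with clusters 0 and 10 joined. At resolution 0.4, 1 gene, Klf9, was higher there. For co-detection, the median log2 odds ratio over 28 pairs was 0.72 over both libraries, 0.64 to 0.81 when either replicate was left out, 1.35 with no thinning and 0.86 with clusters 0 and 10 joined. The pairs with Nr3c1 below 0 in both libraries were 5, against 0 with no thinning and 3 with clusters 0 and 10 joined. No cluster led by cycling or neutrophil genes was among the microglia-like ones, so leaving such clusters out gave no value. The count of 7 genes higher in cluster 13 did not change at 2000 UMIs or without high doublet scores. Depth limits Pik3ip1 and Klf9 most, since their pairs rest on few cells.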
